A study of Mus musculus with 20 samples.

Results

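Primary tumors grown from *Rnaseh2c* knockdown cells were compared with tumors grown from scramble control cells, across every gene of the deposited tumor expression table. The comparison used 6 of the 20 samples of the series, taken by their labels as 3 sh4 and 3 scramble tumors, and 20188 listed genes. Each of 3 injection experiments gave 1 sh4 and 1 scramble tumor. The study asked how *Rnaseh2c*, a candidate metastasis susceptibility gene, acts in mammary cancer, and also sequenced RNA of cultured cells and exomes. All 6 tumors came from the Mvt1 line, mouse mammary carcinoma cells derived from a tumor with *Myc* and *Vegfa* transgenes, implanted into the mammary fat pad of female virgin FVB/nJ mice. The scramble group carried a nontargeting shRNA and the sh4 group carried an shRNA against *Rnaseh2c*, and both lines had been transduced with lentivirus and selected with puromycin. The labels give day 30 for each tumor, while the methods give a span of 28 to 31 days. RNA was taken from small sections of tumor, so each library holds cancer cells and whatever host tissue lay in the section. A single shRNA stood against scramble, so that other targets of sh4 and lowered *Rnaseh2c* cannot be told apart as sources of a difference. Mice of the FVB strain keep a working immune system.

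RNASEH2C is a scaffolding subunit of RNase H2, the enzyme complex that removes ribonucleotides from DNA and cuts RNA paired with DNA. Loss of RNase H2 function in people causes Aicardi-Goutières syndrome, an inflammatory disease with high interferon. Tumors of immune-competent mice are entered by macrophages, T cells and other host cells, and interferon γ released by T cells and NK cells makes cells around them produce antigen presentation proteins and T cell chemokines.

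The libraries stood apart in ways that did not follow the groups. Values were RPKM, reads scaled to gene length and to the size of the library, and for 15729 of 15729 genes above 0 in at least 2 tumors they were whole multiples of a step of the gene's own, to within 1e-06. The whole numbers summed to between 26249887 and 26280354 over the 6 tumors, as they would after scaling of every library to a common total before deposit. In scramble tumor 2, sh4 tumor 2 and sh4 tumor 3 some whole numbers up to 60 were carried by no gene (11, 3 and 5 of them), which is what multiplication by a factor above 1 followed by rounding leaves. No number was missing in scramble tumors 1 and 3 and sh4 tumor 1. The fitted factors, from 0.883 to 1.31, correspond to an estimated 20100000 to 29800000 reads before scaling, with the weakest fit in scramble tumor 3. Distances between libraries were taken as the median absolute difference in log2(RPKM + 0.5) over the 13487 genes whose mean reached 0.1 RPKM.

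The 3 libraries with a fitted factor under 1, called scaled down here, were the closest to each other, at 0.14 between scramble tumors 1 and 3, 0.172 between scramble tumor 3 and sh4 tumor 1, and 0.186 between scramble tumor 1 and sh4 tumor 1. The largest distance, 0.45, lay between sh4 tumors 1 and 2, which belong to the same group. Group took 18.2% of the sum of squares over genes with 1 degree of freedom, experiment 49.3% with 2, and the split between libraries scaled up and scaled down 43.4% with 1. The shares overlap and do not add up, because experiment 1 holds only libraries scaled down, experiment 2 only libraries scaled up, and experiment 3 holds a scramble tumor scaled down and an sh4 tumor scaled up. The first principal component, with 46.4% of the sum of squares, ran from -0.314 in sh4 tumor 1 to 0.363 in sh4 tumor 2, with the scramble tumors at -0.211, 0.192 and -0.195. It separated the scaled-up from the scaled-down libraries and not the groups. Short transcripts moved with the same split. The deviation from the gene mean, taken as the median over 824 genes shorter than 1000 bases less the median over 5602 genes longer than 4000 bases, was -0.18, -0.28 and -0.32 in the 3 libraries scaled down, against 0.25, 0.37 and 0.05 in those scaled up. The part of transcript length in the differences described here was not tested, and a fit with the scaling split as a covariate called 0 genes.

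**Figure D1:**
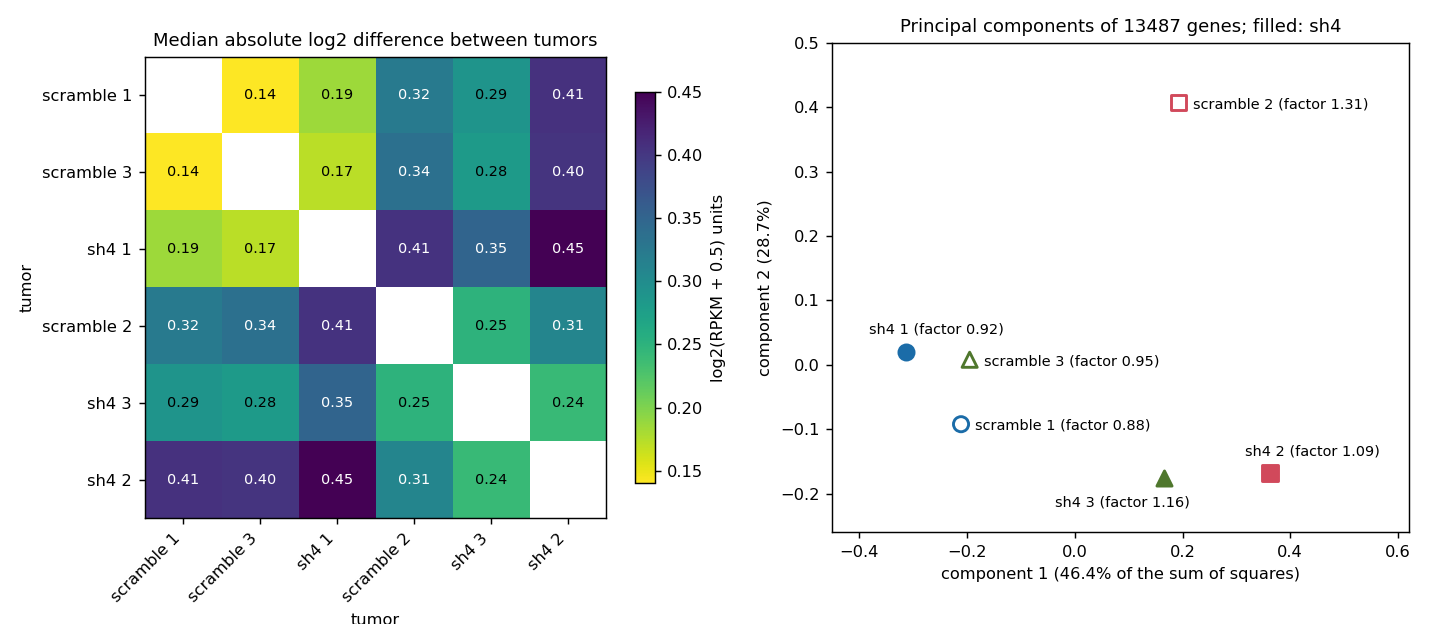
Left, the median absolute log2(RPKM + 0.5) difference between each pair of the 6 tumors, from 0.14 to 0.45. Right, the first 2 principal components of 13487 genes, with open symbols for scramble, filled symbols for sh4 and the fitted scale factor beside each tumor; factors above 1 lie to the right and the groups do not separate along the first component.

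The target of the shRNA was lower in each sh4 tumor than in the scramble tumor of the same experiment. *Rnaseh2c* (chromosome 19, 5601873 to 5603439 on NCBIM37) stood at 26.9, 52.0 and 25.9 RPKM in scramble tumors 1 to 3 and at 10.2, 22.4 and 19.8 RPKM in sh4 tumors 1 to 3. The groups did not overlap, although the highest sh4 value was close to the lowest scramble values. Within experiments 1, 2 and 3 the sh4 tumor was lower by 62.1%, 57.0% and 23.8%. The smallest difference came from the experiment whose sh4 library was scaled up and whose scramble library was scaled down. The log2 fold change was -0.98 with a standard error of 0.37 (limma adjusted p = 0.995), and the exact two-sided permutation test gave p = 0.1, the smallest that 3 tumors against 3 allow. Its size rested on single tumors: it was -0.64 without sh4 tumor 1, -0.66 without scramble tumor 2, and as low as -1.19 without sh4 tumor 2. With the scaling split as a covariate, a fit chosen after the values were seen, *Rnaseh2c* had a log2 fold change of -1.31 and a limma p of 1.44e-05, the smallest of all genes, with an adjusted p of 0.194. The other RNase H genes did not share the difference. *Rnaseh2a*, the catalytic subunit, was at 14.6, 25.4 and 18.1 RPKM in scramble and 15.2, 27.8 and 27.1 RPKM in sh4 tumors. *Rnaseh2b* was at 13.7, 10.5 and 11.99 RPKM in scramble and 11.7, 17.4 and 13.02 RPKM in sh4 tumors, and the groups overlapped for both genes. *Rnaseh1* overlapped too, with within-experiment differences of 0.33, -0.53 and 0.15 on the log2 scale.

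No gene passed the test between the groups at an adjusted p under 0.05 by limma (0.0% of 13487 genes), and the smallest adjusted p was 0.693. At an unadjusted p under 0.05, 291 genes (2.16%) stood higher and 273 (2.02%) stood lower with sh4. Blocking on experiment again left 0 genes called by limma, with a smallest adjusted p of 0.262, and the unadjusted counts were 413 higher (3.06%) and 498 lower (3.69%). Genes below are therefore given by their values in each tumor, and "higher" and "lower" describe values and not calls. The median of all log2 fold changes was -0.04.

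The experiments differed in how far their 2 tumors stood from each other and in which genes set them apart. In experiment 1, 152 genes (1.13%) were 2-fold or more higher in the sh4 tumor and 139 (1.03%) were 2-fold or more lower. In experiment 2 these were 373 (2.77%) and 653 (4.84%), and in experiment 3 they were 196 (1.45%) and 268 (1.99%). The share of genes within 0.5 of no difference on the log2 scale was 89.0%, 69.7% and 76.0%. Across genes, which are not independent replicates, the differences of experiments 2 and 3 had a Pearson correlation of 0.41 (Spearman 0.35). Those of experiment 1 had a Pearson correlation of -0.15 with experiment 2, where Spearman's had the other sign at 0.07, and of -0.25 with experiment 3 (Spearman -0.19). Without the genes of the fat, muscle, red blood cell and milk lists and the *Mup* family, the Pearson correlations of experiments 2 and 3, 1 and 2, and 1 and 3 were 0.35, 0.04 and -0.12, and the Spearman correlations were 0.34, 0.08 and -0.18. The genes at the far corners of the plot of paired differences were those of host tissue. *Mup2*, a major urinary protein gene, had differences of 7.02, -5.87 and -4.02 in experiments 1 to 3, and *Tnnc2*, a troponin of fast muscle fibers, had -5.29, 3.73 and 4.15. Between experiments 1 and 2, 35 genes were 2-fold higher in both, 36 were 2-fold lower in both and 82 were 2-fold in opposite directions.

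**Figure D2:**
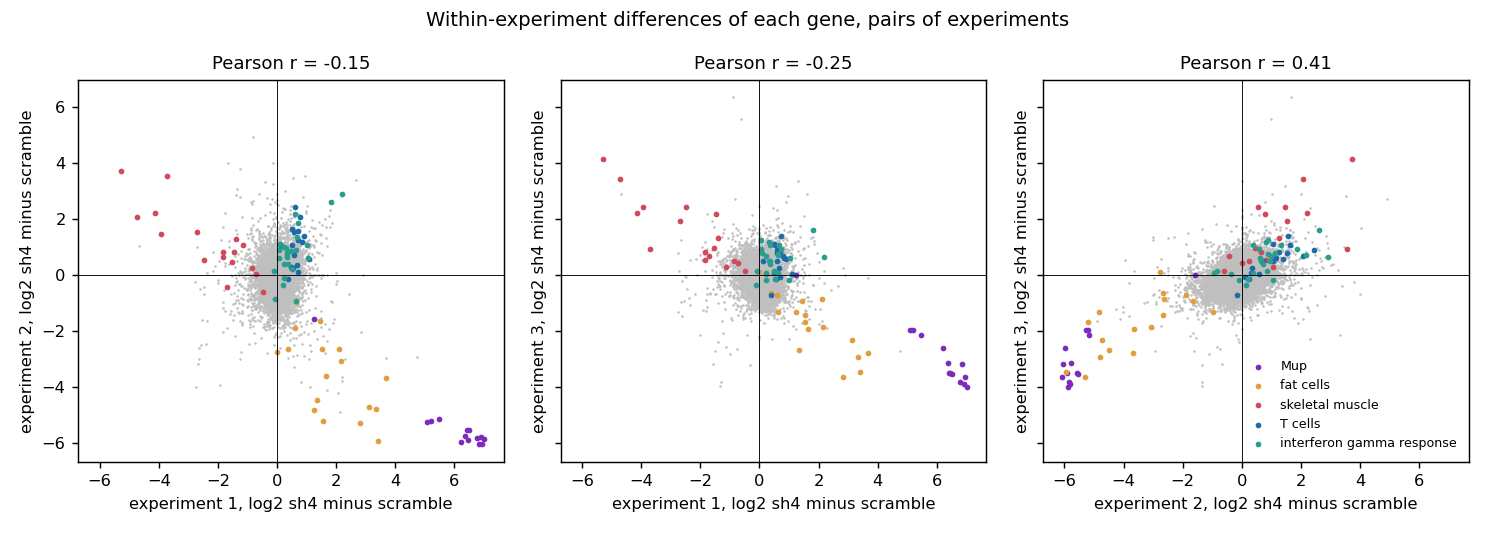
Each point is 1 of 13487 genes, plotted by its log2 sh4 minus scramble difference in 1 experiment against another, with genes of 5 lists in color. Mup and fat genes lie at the upper end in experiment 1 and the lower end in experiments 2 and 3, muscle genes lie the other way, and most T cell and interferon γ response genes lie above 0 in all 3.

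The same sign in every experiment was found for 1601 genes on the higher side (11.9%) and 2025 on the lower side (15.0%). A difference of at least 2-fold in every experiment, on the scale of log2(RPKM + 0.5), was left for 11 higher genes (0.0816%) and 7 lower genes (0.0519%). The higher genes were *Cd8a*, *Cd8b1*, *H2-Q2*, *Igfbp2*, *Ccl19*, *Ubd*, *Ccl24*, *Ly6i*, *Gbp8*, *Serpina3f* and *Snord66*, of which *Ubd*, *Cd8a*, *Cd8b1* and *Ccl19* belong to gene lists described here. The lower genes were *Gzmf*, *Gzmg*, *Ott*, *Gm15091*, *Gm15093*, *Gm15127* and *Vsig4*. Of all genes, *Mir1981*, *Ccl17* and *Pdcd1* came closest on the higher side without reaching the threshold, with smallest differences of 0.968, 0.951 and 0.933. *Gm15097*, *Gzmd* and *Ednrb* came closest on the lower side, at -0.993, -0.96 and -0.957.

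*Ubd* (chromosome 17, 37330837 to 37333040), a ubiquitin-like modifier that marks proteins for degradation, was at 2.05, 3.46 and 3.29 RPKM in scramble tumors 1 to 3 and at 8.47, 23.8 and 11.1 RPKM in sh4 tumors. All sh4 tumors lay well above all scramble tumors, with differences of 1.81, 2.62 and 1.62 and a log2 fold change of 2.02 (standard error 0.38). Behind these values stood 78, 131 and 125 whole units in scramble and 322, 904 and 422 in sh4 tumors. *H2-Q2*, a nonclassical MHC class I gene, was at 10.3, 13.4 and 2.55 RPKM in scramble and 32.4, 55.2 and 22.1 RPKM in sh4 tumors. It was lowest in scramble tumor 3, the groups did not overlap, and the log2 fold change was 2.17 (standard error 0.58). *Ly6i*, a member of the lymphocyte antigen 6 family, was at 0.32, 0.67 and 0.99 RPKM in scramble and 2.37, 3.40 and 3.31 RPKM in sh4 tumors. *Gbp8*, a guanylate-binding protein of the interferon-induced GTPases, was at 2.71, 1.10 and 3.79 RPKM in scramble and 6.62, 4.81 and 11.8 RPKM in sh4 tumors. Neither gene overlapped between the groups, and their log2 fold changes were 1.63 and 1.47. Of 50-base windows of the *Gbp8* transcripts, 18.3% also occur in another gene, most often *Gbp4*, so a part of its reads may be shared.

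*Serpina3f* (chromosome 12, 105452754 to 105459339), a serine protease inhibitor, gave the most even sh4 values of the set. It was at 4.48, 2.76 and 4.74 RPKM in scramble and at 9.99, 9.18 and 10.0 RPKM in sh4 tumors. The groups did not overlap, and leaving out any 1 tumor kept the log2 fold change of 1.22 between 1.00 and 1.34. Of the 11 higher genes, 6 had a promoter in the RefSeq table used, and *Serpina3f* was the only one of these 6 whose promoter held the letters TTCNNNGAA, the form bound by STAT factors, which act below interferon and other cytokine receptors. Its promoter is shown for that match, from 250 bases before to 50 bases after the annotated start, on the plus strand at chr12:104214294-104214593 of GRCm38.p6, with the match in capitals.
Serpina3f: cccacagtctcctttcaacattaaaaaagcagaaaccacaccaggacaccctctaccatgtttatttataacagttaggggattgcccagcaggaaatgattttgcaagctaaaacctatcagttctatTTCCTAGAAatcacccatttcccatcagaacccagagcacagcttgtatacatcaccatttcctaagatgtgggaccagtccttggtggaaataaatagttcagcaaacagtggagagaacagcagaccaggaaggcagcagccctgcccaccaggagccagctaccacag
These letters read the same on both strands and occur in 8.5% of 27025 promoters. Of 15 interferon γ response genes with a listed promoter, 6 (40.0%) held them, and of 11 T cell genes 1 (9.1%) did. A match is a run of letters and not a measured binding site.

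**Figure D3:**
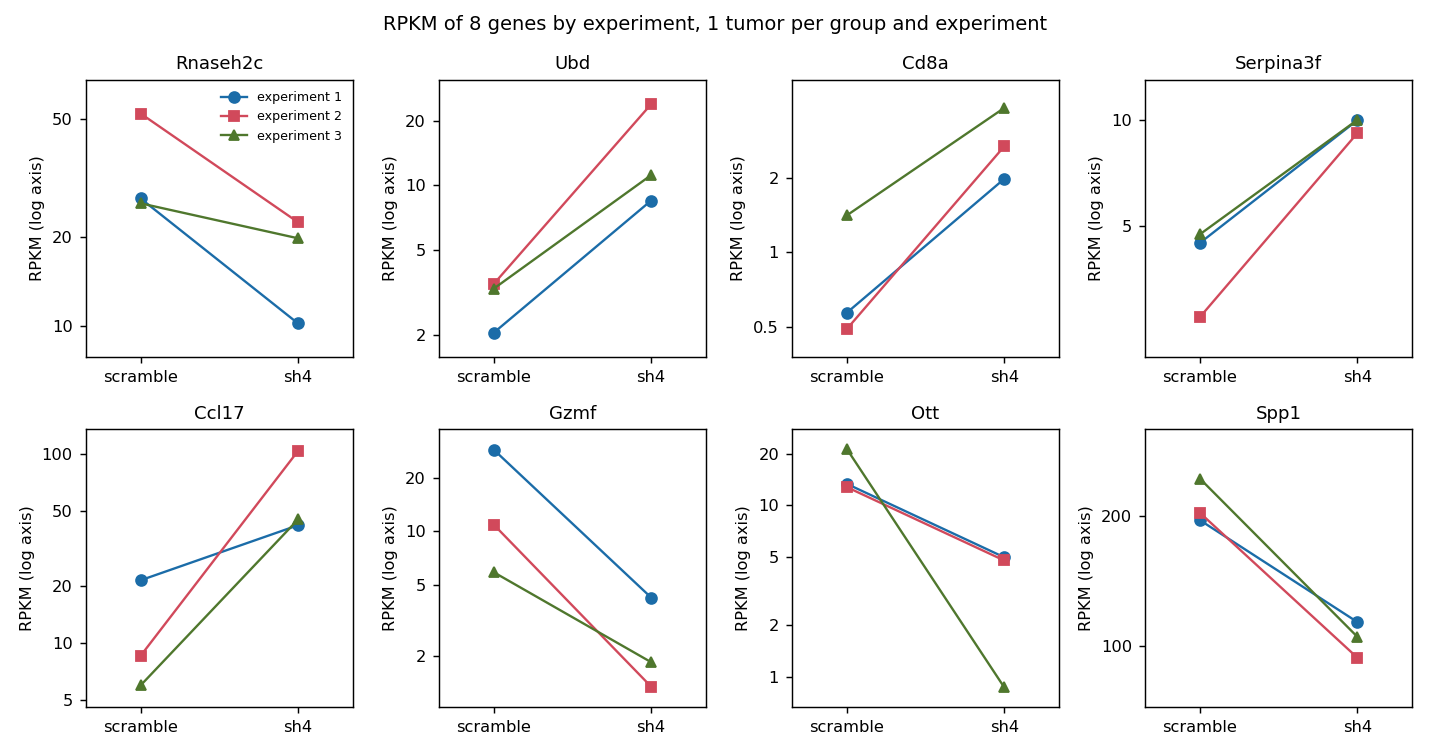
RPKM on a log axis for 8 genes in the scramble and sh4 tumor of each experiment, joined by a line per experiment. Rnaseh2c, Gzmf, Ott and Spp1 are lower in the sh4 tumor of each experiment, and Ubd, Cd8a, Serpina3f and Ccl17 are higher, with the widest gap of Ccl17 in experiment 2 (8.59 and 104 RPKM).

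Both CD8 chains were in the higher set. *Cd8a* (chromosome 6, 71323421 to 71329165) encodes the alpha chain of the CD8 coreceptor of cytotoxic T cells and was at 0.57, 0.49 and 1.41 RPKM in scramble and 1.98, 2.68 and 3.83 RPKM in sh4 tumors. The beta chain gene *Cd8b1* was at 0.93, 1.59 and 3.16 RPKM in scramble and 3.96, 6.29 and 7.02 RPKM in sh4 tumors. For both genes experiment 3 held the highest scramble and the highest sh4 tumor, and no sh4 value fell to the scramble range. In cultured Mvt1 cells, whose values are FPKM from another pipeline and can only be set beside these, *Cd8a* and *Cd8b1* reached at most 0.0218 and 0.0202. In bulk tissue more cells of a type and more RNA per cell cannot be told apart. *Pdcd1*, the inhibitory receptor PD-1 of activated T cells, was at 0.48, 0.73 and 0.97 RPKM in scramble and 2.24, 2.18 and 2.30 RPKM in sh4 tumors. Its sh4 values were nearly equal and more than 2-fold above every scramble value.

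Chemokines of the higher set bind receptors of different cells. *Ccl19*, the ligand of CCR7 on naive T cells and mature dendritic cells, was at 0.29, 0.47 and 0.25 RPKM in scramble and 1.33, 2.01 and 1.15 RPKM in sh4 tumors. The groups did not overlap, but 96.4% of its 50-base windows also occur in the copy *Gm2023*, so that the gene of origin is uncertain. *Ccl24*, which attracts eosinophils, was at 3.14, 3.33 and 1.02 RPKM in scramble and 6.94, 20.8 and 4.65 RPKM in sh4 tumors. Its sh4 values spread widely, with the highest in sh4 tumor 2. The CCR4 ligand *Ccl17*, just outside the 2-fold set, was at 21.6, 8.59 and 5.99 RPKM in scramble and 42.1, 104 and 45.2 RPKM in sh4 tumors. Its partner *Ccl22* was at 12.2, 6.32 and 8.61 RPKM in scramble and 20.2, 30.2 and 15.5 RPKM in sh4 tumors. Both ligands were highest in sh4 tumor 2 and neither overlapped between the groups, with log2 fold changes of 2.43 and 1.23.

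*Igfbp2*, which binds insulin-like growth factors, was named for its differences within every experiment and its small limma p with the experiment as a block. It was at 2.42, 6.39 and 12.6 RPKM in scramble tumors 1 to 3 and at 9.38, 29.5 and 32.6 RPKM in sh4 tumors 1 to 3. The groups overlapped, since scramble tumor 3 stood above sh4 tumor 1, while within each experiment the sh4 tumor was higher by 1.76, 2.12 and 1.34. The log2 fold change was 1.74, with a standard error of 0.63 without the block and 0.21 with it. The limma p was 0.0248 without the block and 9.2e-05 with it (adjusted p = 0.995 and 0.262). The gain from the block follows in part from how the gene was chosen and does not measure what pairing adds for other genes. *Snord66*, a small nucleolar RNA of the higher set, rests on 0, 0 and 0 whole units in scramble and 2, 2 and 1 in sh4 tumors, and no fold is given for it.

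The lower set held granzymes, an X-linked gene family and a macrophage receptor. Granzymes are serine proteases of cytotoxic lymphocytes, and *Gzmd*, *Gzme*, *Gzmf* and *Gzmg* lie together on chromosome 14. *Gzmf* (56824103 to 56830244) was at 28.9, 10.9 and 5.90 RPKM in scramble and 4.25, 1.34 and 1.84 RPKM in sh4 tumors. *Gzmg* was at 25.2, 18.0 and 6.71 RPKM in scramble and 3.31, 0.64 and 2.34 RPKM in sh4 tumors. Scramble tumor 1 was the highest tumor for both genes, every sh4 tumor lay below every scramble tumor, and the log2 fold changes were -2.24 and -2.71. *Gzmd* and *Gzme* had log2 fold changes of -2.27 and -2.00 and did not overlap between the groups either. Between 7.5% (*Gzmf*) and 21.9% (*Gzmd*) of the 50-base windows of these 4 genes occur in another gene, so most of their sequence is their own. *Gzmb*, the granzyme of activated CD8 T cells that lies in the same cluster, was at 6.26, 4.43 and 4.84 RPKM in scramble and 5.39, 1.79 and 3.10 RPKM in sh4 tumors. *Gzma*, on chromosome 13, was at 3.34, 6.60 and 3.65 RPKM in scramble and 4.60, 7.36 and 9.39 RPKM in sh4 tumors. The groups overlapped for *Gzmb* and *Gzma*, and their log2 fold changes had opposite signs (-0.62 and 0.60). *Prf1*, which encodes the pore protein perforin, was at 3.49, 2.34 and 2.1 RPKM in scramble and 1.68, 1.05 and 1.95 RPKM in sh4 tumors, without overlap. The CD8 chains and perforin thus stood on opposite sides.

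*Ott*, named for its transcripts in ovary and testis, and *Gm15091*, *Gm15093* and *Gm15127* belong to a multicopy family on chromosome X. *Ott* (145508825 to 145572695) was at 13.3, 12.8 and 21.3 RPKM in scramble and 4.98, 4.77 and 0.87 RPKM in sh4 tumors. *Gm15127* was at 3.11, 5.08 and 4.75 RPKM in scramble and 0.78, 1.33 and 0.29 RPKM in sh4 tumors. The groups stood far apart, sh4 tumor 3 was the lowest tumor for all 4 genes, and the log2 fold changes ran from -2.22 (*Ott*) to -1.66 (*Gm15091*). The 4 genes are not 4 independent measurements. All 50-base windows of *Ott* and *Gm15093* (100.0% each) and 89.2% to 94.8% of those of *Gm15091* and *Gm15127* occur in another gene, so reads of 1 locus may be counted at several. The upstream sequence repeats as well. The promoters of *Ott* and *Gm15091*, shown because both genes are in the lower set, share 294 of 300 bases. Both run on the plus strand of GRCm38.p6, *Ott* at chrX:149097702-149098001 and *Gm15091* at chrX:149941405-149941704, and capitals mark the 6 bases that differ.
Ott: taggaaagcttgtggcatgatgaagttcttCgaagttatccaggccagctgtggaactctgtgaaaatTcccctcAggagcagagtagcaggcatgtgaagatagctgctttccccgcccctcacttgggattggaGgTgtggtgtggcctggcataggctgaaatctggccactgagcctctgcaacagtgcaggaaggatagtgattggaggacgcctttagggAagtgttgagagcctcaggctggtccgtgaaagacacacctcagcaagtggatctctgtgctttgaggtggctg
Gm15091: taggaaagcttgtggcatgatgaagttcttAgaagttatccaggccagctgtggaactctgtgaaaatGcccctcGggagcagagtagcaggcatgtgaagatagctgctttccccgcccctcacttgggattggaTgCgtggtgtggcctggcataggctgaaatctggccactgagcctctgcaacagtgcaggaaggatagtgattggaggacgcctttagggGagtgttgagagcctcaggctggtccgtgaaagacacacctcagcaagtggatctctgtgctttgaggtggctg
The promoters of *Ott* and *Gm15093* share 90 of 300 bases when laid end to end without gaps. All 4 family members of the lower set held TTCNNNGAA in their promoters, which counts copies of related sequence. The family was not analysed here in cultured cells.

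*Vsig4*, a complement receptor of tissue macrophages, was at 3.37, 2.27 and 1.11 RPKM in scramble and 1.22, 0.33 and 0.18 RPKM in sh4 tumors. The groups overlapped between scramble tumor 3 and sh4 tumor 1, and the differences within experiments were -1.17, -1.74 and -1.24. *F13a1*, a clotting factor subunit on the monocyte list, was at 64.7, 55.3 and 31.1 RPKM in scramble and 38.6, 9.77 and 14.2 RPKM in sh4 tumors. *Folr2*, a folate receptor on the macrophage list, was at 24.7, 28.9 and 16.7 RPKM in scramble and 18.6, 7.09 and 8.76 RPKM in sh4 tumors. Both overlapped between the groups in sh4 tumor 1, and *Vsig4*, *F13a1* and *Folr2* were lower in every experiment. Neither list was uniformly lower. The 7 monocyte genes tested had mean differences of 0.21, -0.97 and -0.31, with 3 positive and 4 negative log2 fold changes. The 17 macrophage genes had mean differences of -0.03, -0.56 and -0.25. Of these, 2 were higher and 6 lower in every experiment, beside 11.9% and 15.0% of all genes. In scramble tumors 1 and 3 and sh4 tumors 2 and 3, the most abundant gene that cultured cells lack was *C1qa*, a complement subunit. It was at 508.7 to 856.8 RPKM over the 6 tumors, with its highest value in sh4 tumor 2.

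*Spp1*, which encodes the matrix protein osteopontin, gave a large difference at a high level. It was at 195.7, 203.5 and 244 RPKM in scramble and at 113.7, 94.0 and 105 RPKM in sh4 tumors. The groups were far apart relative to their spread, the differences were -0.78, -1.11 and -1.21, and leaving out any 1 tumor moved the log2 fold change of -1.03 only between -1.10 and -0.94. Cultured Mvt1 cells held *Spp1* at 454 to 560 FPKM, while they held *Ubd*, *Cd8a*, *Gzmf* and *Vsig4* at under 0.04 FPKM. Of the other lower granzymes, *Gzme* was at 1.3 to 1.72 FPKM in the cultured libraries.

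Of 34 gene lists with a measured member, 9 had a positive mean difference in every experiment, 6 a negative one and 19 had mixed signs. The mean over all genes tested was 0.05, -0.10 and -0.09 in experiments 1 to 3. T cell genes had means of 0.63, 1.01 and 0.49, with 14 of 17 genes higher in every experiment and 0 lower, beside 11.9% and 15.0% of all genes. In 11 of the 17 every sh4 tumor exceeded every scramble tumor, beside 4.19% of all genes on the higher side and 4.98% on the lower side. *Cd3g*, which encodes part of the CD3 signaling complex of T cells, was at 10.8, 5.67 and 10.3 RPKM in scramble and 16.7, 32.8 and 19.6 RPKM in sh4 tumors. The summed level of the list was 45.7, 34.7 and 49.8 RPKM in scramble and 75.6, 112.1 and 87.9 RPKM in sh4 tumors, lowest in scramble tumor 2 and highest in sh4 tumor 2. Scramble tumor 2 also held the most fat, and without that tumor the mean difference of the list was 0.59 against 0.71 with it. Genes of CD8 and cytotoxic cells had means of 0.45, 0.49 and 0.45, with 8 of 12 higher and 2 lower in every experiment. NK cell genes did not keep 1 sign (0.37, 0.28 and -0.25). Only 3 of 10 B cell genes passed the filter on low values, with means of 0.56, 0.36 and 0.01.

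The interferon γ response list had means of 0.52, 0.80 and 0.52, and 18 of its 25 genes were higher in every experiment and 0 lower. Of all genes, 11.9% were higher and 15.0% lower in every experiment. Its sum was 1715, 1496 and 1844 RPKM in scramble and 2015, 2973 and 2939 RPKM in sh4 tumors. The sums did not overlap. The list also holds *Cxcl9*, a chemokine for T cells, which was at 7.80, 4.66 and 23.4 RPKM in scramble and at 37.7, 38.3 and 36.4 RPKM in sh4 tumors. *Ifng* itself was at 0.52, 0.58 and 0.65 RPKM in scramble and 0.83, 0.79 and 0.79 RPKM in sh4 tumors, a small difference without overlap. The type I interferon list, by contrast of values and without a test of the difference, had means of -0.23, 0.26 and 0.17. Of its 24 genes, 2 were higher and 4 lower in every experiment, beside 11.9% and 15.0% of all genes.

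MHC class I genes had means of 0.34, 0.60 and 0.73. *H2-K1*, a classical class I heavy chain, was at 398.8, 228.0 and 350.4 RPKM in scramble and 510.0, 666.2 and 552.6 RPKM in sh4 tumors. *H2-D1*, the other classical heavy chain of this list, was at 979.9, 883.7 and 860.0 RPKM in scramble and 1267, 1150 and 1511 RPKM in sh4 tumors. Neither overlapped, and *H2-Q6* and *H2-Q7*, which share 22.7% and 24.1% of their windows with other genes, had log2 fold changes of 1.25 and 1.03. Their light chain *B2m* did not follow in experiment 3. It was at 2757, 1010 and 2394 RPKM in scramble and 4295, 2209 and 1704 RPKM in sh4 tumors, with differences of 0.64, 1.13 and -0.49.

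Without scramble tumor 2 the mean difference was 0.46 for the interferon γ list (0.61 with it) and 0.47 for MHC class I (0.56 with it). Dendritic cell genes had means of 0.28, 0.65 and 0.44, and the list holds *Ccl17* and *Ccl22*. Of its 15 genes, 7 were higher and 1 lower in every experiment, beside 11.9% and 15.0% of all genes. Lymph node stroma genes had means of 1.15, 1.13 and 0.22 over 6 genes. The *Ccl21* copies *Gm1987* and *Ccl21c* are not on the list, and both were highest in sh4 tumor 3. *Cxcl13*, which draws B cells into follicles, was at 5.46, 2.17 and 8.43 RPKM in scramble and 37.6, 27.7 and 6.27 RPKM in sh4 tumors. It was high in sh4 tumors 1 and 2 and within the scramble range in sh4 tumor 3.

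Endothelial genes had means of 0.55, 0.10 and 0.64. Of the 16, 9 were higher in every experiment and 0 lower, beside 11.9% and 15.0% of all genes. *Emcn*, a sialomucin of venous and capillary endothelium, was at 3.85, 2.27 and 3.65 RPKM in scramble and 8.92, 5.48 and 6.23 RPKM in sh4 tumors. *Cldn5*, a tight junction protein of endothelium, was at 1.90, 2.43 and 1.63 RPKM in scramble and 4.02, 4.57 and 12.6 RPKM in sh4 tumors. Both groups stayed apart for both genes. *Pecam1*, the common endothelial adhesion molecule, overlapped, with differences of 0.86, -0.08 and 0.32. Pericyte and smooth muscle genes had smaller means of 0.18, 0.02 and 0.25.

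Hypoxia and glycolysis genes had means of -0.30, -0.51 and -0.35 in experiments 1 to 3, beside -0.20, -0.12 and -0.16 for the housekeeping list. All 16 had a negative log2 fold change, beside 7747 of all 13487 genes. Of the 16, 10 were lower in every experiment and 0 higher, beside 15.0% and 11.9% of all genes. In 8 every sh4 tumor was under every scramble tumor, beside 4.98% of all genes. Of 12 housekeeping genes, 5 were lower in every experiment and 2 lay lower without overlap. *Pgk1* is on both lists, so they are not separate. The sums of the hypoxia and glycolysis list were 1443, 1891 and 1434 RPKM in scramble and 1148, 1176 and 1201 RPKM in sh4 tumors, without overlap. *Bnip3*, a mitophagy receptor induced by low oxygen, was at 64.1, 49.5 and 61.0 RPKM in scramble and 43.1, 17.4 and 20.3 RPKM in sh4 tumors. *Aldoa*, a glycolytic aldolase, was at 348.1, 487.2 and 375.0 RPKM in scramble and 275.3, 295.1 and 281.5 RPKM in sh4 tumors. Every sh4 tumor lay below every scramble tumor for both genes. *Ndrg1*, a hypoxia-induced stress gene, did the same with a log2 fold change of -0.59. *Vegfa*, also a hypoxia target and a transgene of the Mvt1 donor tumor, was at 8.83, 9.53 and 10.5 RPKM in scramble and 7.22, 4.18 and 6.25 RPKM in sh4 tumors. The other transgene, *Myc*, overlapped, with differences of 0.49, -0.07 and 0.03.

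Immediate early and heat shock genes, which respond quickly to stress and handling of tissue, had means of -0.67, -0.39 and -0.19. *Junb* was at 50.1, 45.3 and 54.2 RPKM in scramble and 29.8, 23.8 and 40.7 RPKM in sh4 tumors. *Ier3*, an early response gene, was at 27.4, 25.0 and 30.9 RPKM in scramble and 10.6, 13.2 and 21.8 RPKM in sh4 tumors. Both genes were lower in every sh4 tumor, with the smallest gap in experiment 3. Mitosis genes had means of -0.14, -0.57 and -0.12. Of the 16, 9 were lower and 1 higher in every experiment, beside 15.0% and 11.9% of all genes. *Aurka*, a mitotic kinase, had the smallest limma p of the list. It was at 9.08, 9.78 and 9.82 RPKM in scramble and 6.07, 5.16 and 6.89 RPKM in sh4 tumors. In 6 of the 16 genes every sh4 tumor was under every scramble tumor, beside 4.98% of all genes. *Top2a*, the list gene with the highest mean level, overlapped. It had 9024, 9104 and 8799 whole units in scramble and 8547, 7825 and 10667 in sh4 tumors. The histone list had means of -0.77, -0.47 and -0.23, and *Hist1h1c*, a linker histone, stood at 116.3, 57.5 and 98.8 RPKM in scramble and 33.3, 39.1 and 62.0 RPKM in sh4 tumors with an overlap between scramble tumor 2 and sh4 tumor 3. Replication-dependent histone messages mostly lack a poly(A) tail, so their levels in mRNA libraries also depend on the RNA selection. Housekeeping genes had means of -0.20, -0.12 and -0.16, smaller decreases than those of the histone and immediate early lists in every experiment. The mitosis list stood below the housekeeping list only in experiment 2.

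**Figure D4:**
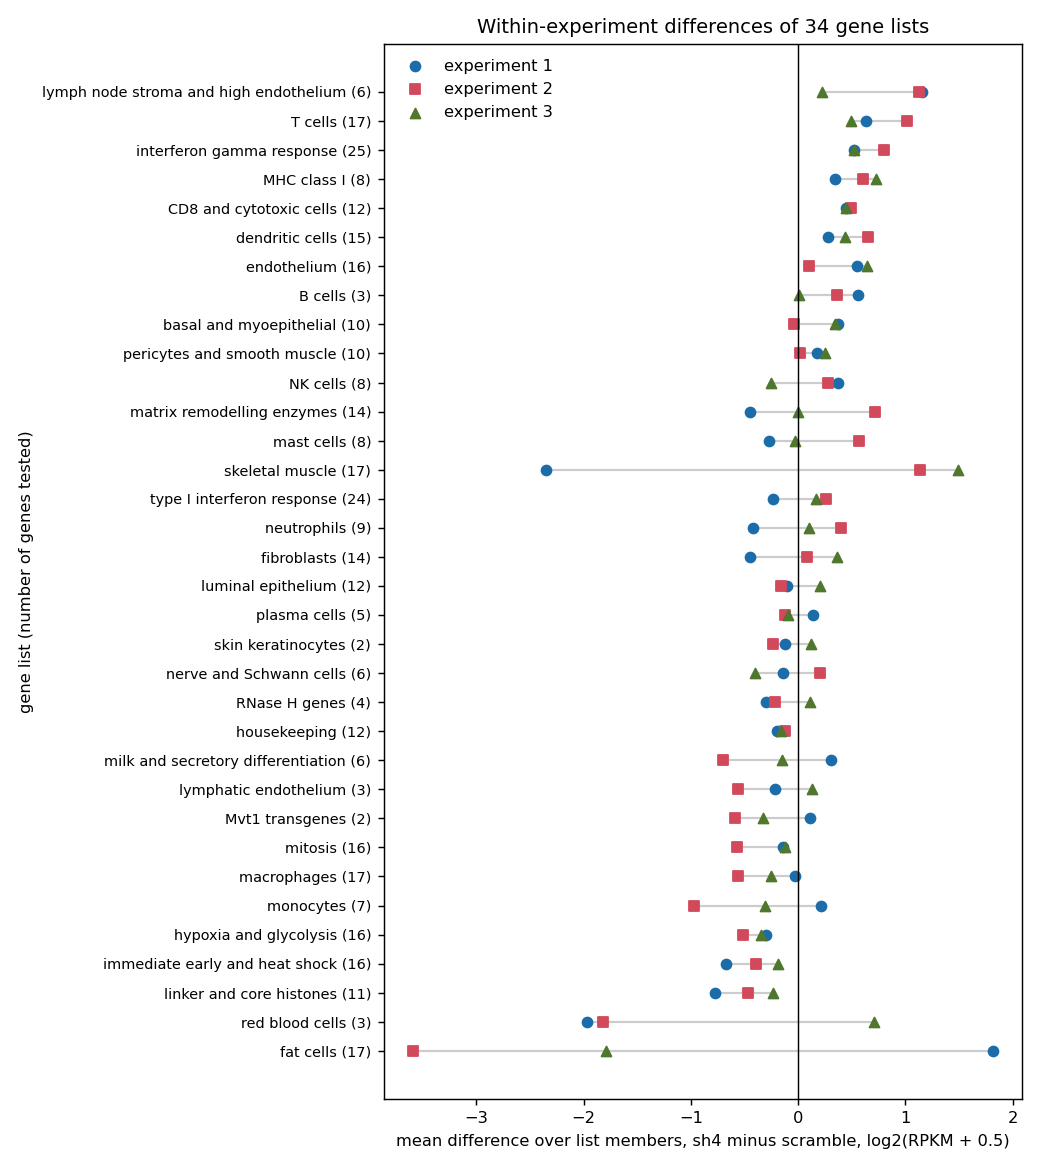
Mean within-experiment difference of each of 34 gene lists, sh4 minus scramble on the log2(RPKM + 0.5) scale, with 1 symbol per experiment, the number of genes tested in parentheses and lists ordered by their mean. Lists of T cells and the interferon γ response lie to the right of 0 in all 3 experiments, hypoxia and histone lists to the left, and the fat (1.82, -3.59 and -1.79) and muscle lists (-2.35, 1.14 and 1.49) spread across 0.

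Genes of fat, muscle and the *Mup* family differed between tumors by more than any immune list did. Fat cell genes summed to 70.9, 2990 and 398.5 RPKM in scramble and 453.6, 110.5 and 65.5 RPKM in sh4 tumors. Scramble tumor 2 stood far above the rest, and the sh4 tumor held more fat in experiment 1 and less in experiments 2 and 3. *Fabp4*, the fatty acid carrier of fat cells, followed at 21.4, 1514 and 163.2 RPKM in scramble and 190.1, 57.1 and 31.7 RPKM in sh4 tumors, and 0 of 17 list genes kept 1 sign in all 3 experiments. The list mean was -1.19 over all tumors and 0.02 without experiment 2. The *Mup* family, secreted carriers made mainly in liver and in some fat and glands, summed to 9.94, 2876 and 144.5 RPKM in scramble and 1621, 44.8 and 7.03 RPKM in sh4 tumors. Its 14 tested members share most of their sequence (98.9% of the *Mup2* windows), so they count as 1 signal. *Hp*, which encodes haptoglobin, followed the same tumors at 4.96, 841.6 and 168.1 RPKM in scramble and 145.5, 109.6 and 25.0 RPKM in sh4 tumors.

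Skeletal muscle genes ran the other way. The fast muscle troponin *Tnnc2* was at 22.8, 0.29 and 0.19 RPKM in scramble and 0.10, 9.94 and 11.8 RPKM in sh4 tumors. The muscle actin gene *Acta1* was at 21.6, 0.21 and 0.32 RPKM in scramble and 0.34, 2.45 and 8.27 RPKM in sh4 tumors. Both genes were high in scramble tumor 1 and sh4 tumors 2 and 3 and near 0 in the other 3, which are neither the groups nor the experiments. The red cell gene *Hbb-b1* was at 96.0, 339.8 and 35.0 RPKM in scramble and 14.8, 42.0 and 83.2 RPKM in sh4 tumors, highest in the tumor with the most fat. Fibroblast genes summed to 1551, 677.5 and 1078 RPKM in scramble and 1418, 842.8 and 1681 RPKM in sh4 tumors, with means of -0.45, 0.08 and 0.36. *Krt8*, a keratin of luminal epithelium and of the carcinoma cells, was at 365.8, 691.3 and 346.7 RPKM in scramble and 248.1, 393.6 and 401.2 RPKM in sh4 tumors, with overlap.

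**Figure D5:**
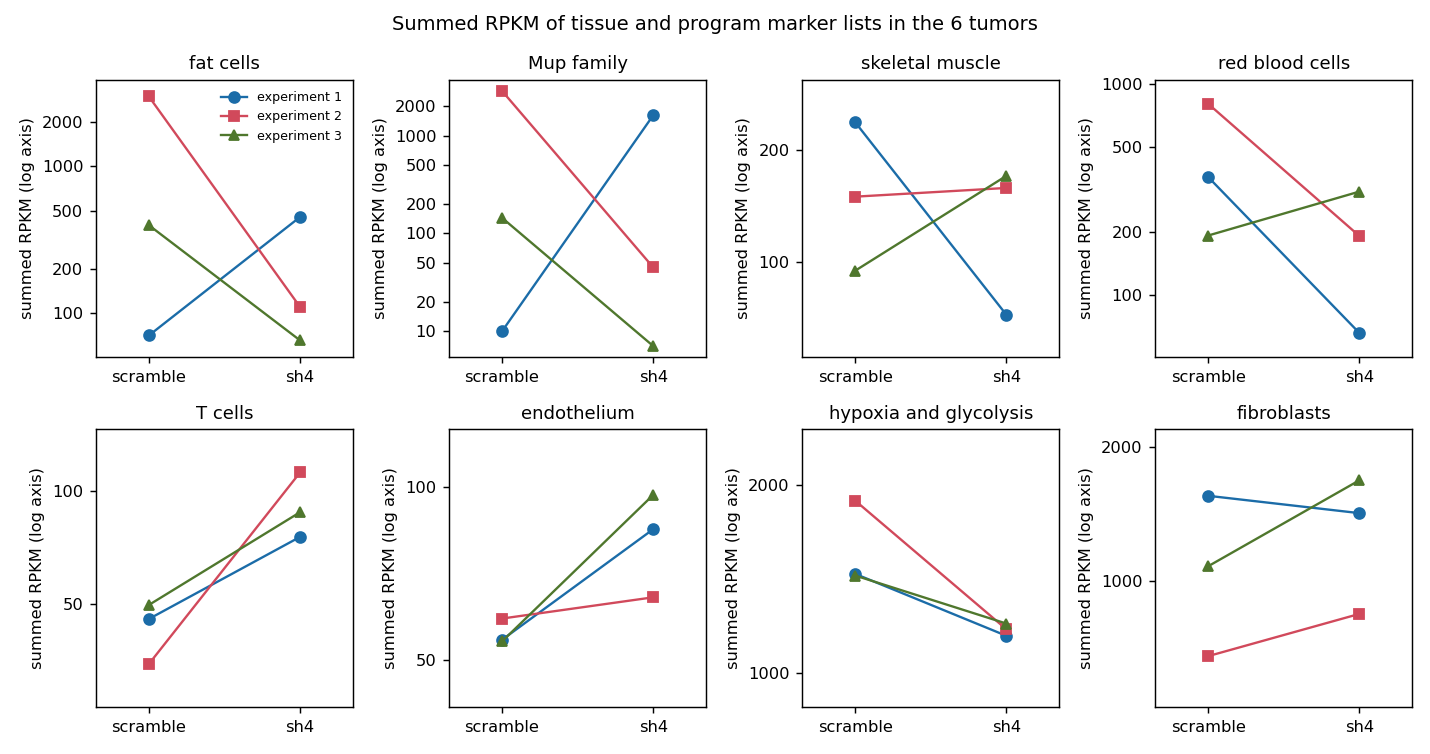
Summed RPKM of 8 marker groups on a log axis, scramble and sh4 tumor of each experiment joined by a line. The Mup and fat lines cross, with sh4 above scramble in experiment 1 and below it in experiments 2 and 3. Muscle lines cross the other way, T cell sums are higher and hypoxia sums lower in every sh4 tumor.

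A wider measure of host tissue used the 7212 of 19014 matched genes that stood under 0.1 FPKM in all 6 cultured Mvt1 libraries. These held 3.05%, 3.42% and 2.72% of summed RPKM in scramble and 3.44%, 2.41% and 2.86% in sh4 tumors (3.06 ± 0.35% and 2.90 ± 0.52%, SD, n = 3). The groups overlapped, and the within-experiment differences were 0.399, -1.017 and 0.136 percentage points. *Fabp4* alone was 10.0% of that sum in scramble tumor 2. The share covers host genes that the cancer cells lack and leaves out host RNA of genes that both express.

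Single tumors carried single genes. Scramble tumor 2 was at least 2-fold above all other tumors in 99 genes and at least 2-fold below them in 82, more than any other tumor, while scramble tumor 3 was so in 4 and 5. *Mmp13*, a collagenase, was at 174.1, 5.39 and 60.1 RPKM in scramble and 72.0, 40.6 and 35.6 RPKM in sh4 tumors. *Mcpt2*, a protease of mucosal mast cells, was at 123.2, 6.88 and 74.5 RPKM in scramble and 51.1, 101.1 and 63.1 RPKM in sh4 tumors. Scramble tumor 2 was the lowest of all 6 for both. *Cplx2*, a regulator of vesicle release, was at 29.8, 49.5 and 29.6 RPKM in scramble and 41.0, 246.5 and 155.6 RPKM in sh4 tumors, high in the 2 sh4 libraries that were scaled up. *Gm1987*, a copy of the *Ccl21* chemokine genes, was at 6.20, 0 and 0.15 RPKM in scramble and 3.13, 1.09 and 52.8 RPKM in sh4 tumors, so that sh4 tumor 3 alone carried it at a high level.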

How the data were processed

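Messenger RNA of 3 sh4 and 3 scramble primary tumors was analysed. The authors trimmed reads with Trimmomatic, aligned them by Tophat to mm9 with Ensembl transcripts, and deposited RPKM per gene after work in the Partek Genomics Suite. The scaling to a common library total was found from the deposited RPKM values. FPKM of cultured Mvt1 cells, deposited by the authors from a separate pipeline, served to list genes that cultured cells lack and to set levels in culture beside tumor values.

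RPKM were taken as log2(RPKM + 0.5) and genes averaging at least 0.1 were kept. Groups were compared in R 4.3.3 by limma 3.58.1, using its trended variance prior, and p-values were adjusted by the Benjamini-Hochberg method. Alternatives were other pseudocounts, filters and scalings, voom on the whole numbers, the experiment as a block, and leaving out tumors or experiments. The procedure was tested on simulated data. The labels name the experiment of each tumor, so numbers pair the tumors. Correlations of deviations within a number were 0.138, 0.33 and -0.117, and those between numbers ran from -0.298 to 0.293. Scramble tumor 3 correlated best with sh4 tumor 1, so the pairing rests on the labels and not on these values.

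The gene lists, the comparison and the genes named (226 by a rule on effect size, spread between experiments, library outliers, list membership and level, of which the text uses a part) were chosen with earlier results of these data known. Gene coordinates are GENCODE vM1 on NCBIM37, and promoters are RefSeq on GRCm38.p6.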

Additional observations from a re-analysis of the deposited data

How the results depend on the processing

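No other pseudocount, filter, scaling or left-out tumor called a gene at an adjusted p under 0.05 by limma, and the replicate block called 0 as well. Leaving out a tumor or an experiment gave 0 to 1 called genes (*Tnnc2*, without experiment 1), and 15 without experiment 1 in the fit with the replicate block, 4 higher and 11 lower, among them *Ccl17*, *Hp* and *Mup2*. The fits without an experiment, by voom and with the scaling split as a covariate were added after the values were seen. Genes at least 2-fold higher in every experiment were 24 with a pseudocount of 0.1 and 5 with a pseudocount of 1, and 20 to 62 when an experiment was left out. Those lower were 14 with a pseudocount of 0.1 and 17 to 107 when an experiment was left out, which follows in part from needing 2 experiments and not 3. At an unadjusted p under 0.05, leaving out sh4 tumor 1 gave 663 higher and 1367 lower genes, leaving out sh4 tumor 2 gave 239 and 108, leaving out sh4 tumor 3 gave 184 and 156, and the fit with the scaling split as a covariate gave 734 and 618. Without the fat, muscle, red blood cell, milk and *Mup* genes, the Pearson correlations of experiments 1 and 2, 1 and 3, and 2 and 3 were 0.04, -0.12 and 0.35. Other host genes stayed in. For 40 named genes beside *Rnaseh2c*, 520 alternative fold changes, which do not include the fits without an experiment, held 0 changes of sign. Many of these genes were named for a large difference of 1 sign in every experiment or for a small limma p. For them such alternatives could hardly change the sign, so the 0 changes are no test of stability. The mean of 14 of 34 lists changed sign under at least 1 alternative. The fibroblast list is not in that count, since its mean rounded to -0.0. Its mean was -0.21 without scramble tumor 2 and 0.34 without scramble tumor 1. No tumor table gives reads before scaling, so precision rests on the spread between 3 tumors.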
